A study of Mus musculus with 9 samples.

Results

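Enterochromaffin cells are the serotonin-producing endocrine cells of the gut epithelium. Genes for making, storing and taking up serotonin, together with the substance P precursor, were followed in crypt intestinal epithelial cells (IECs) after activation of natural killer T (NKT) cells. The 8 genes were Tph1, Ddc, Gch1, Slc18a1, Slc6a4, Tac1, Trpa1 and Lmx1a, chosen by symbol out of 29288 genes in the count table. All 8 passed the filter on low counts, as did 18933 genes in all. They were named with the low values of Tph1 and Tac1 at the later time point already known, so members' values at that time point are given as a description. Where members called there are counted, the count is set beside the share of all genes called and supports nothing.

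Serotonin is made from tryptophan by a hydroxylase, which needs the cofactor tetrahydrobiopterin, and then by a decarboxylase. A vesicular transporter loads it into granules, and a plasma membrane transporter of neighbouring absorptive cells removes it after release. Enterochromaffin cells sense irritants and other luminal cues, and in the mouse many of them also make tachykinins. Secreted serotonin acts on enteric nerves, motility and fluid secretion.

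RNA was sequenced from live IECs sorted as EpCAM+ and free of the Ter119, CD31 and CD45 surface markers, which came from proximal small intestinal crypts of wild-type C57BL/6J mice, all female and aged 7–10 weeks. Control mice were injected intraperitoneally with PBS and sampled after 18 h. The other mice received α-galactosylceramide (αGalCer) at a dose of 2 µg, a CD1d-presented glycolipid that activates NKT cells. The 18h-αGal mice were sampled after 18 h, and 72 h passed before the 72h-αGal mice were sampled. Each group held 3 mice with 1 library per mouse. Since the only controls were taken at 18 h, αGalCer and the time of sampling cannot be told apart at 72 h.

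Total counts ranged from 8887861 to 32722293 per library, a 3.68-fold range. Control replicate 3 was the smallest library and stood apart on the second principal component, at -46.15 against 0.01 to 14.62 for the other 8 libraries. Fold changes of Slc6a4 and Tac1 are therefore also given without it, and those of the other members are not. It was also the lowest control for Slc18a1, Trpa1 and Lmx1a. Epcam, which marks the sorted epithelium, ranged from 16279 to 22719 normalised counts (raw counts divided by 1 factor per library). The members were well sampled except Lmx1a, with 24 to 279 raw counts per library, whereas Ddc had 1260 to 4785.

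All 8 members are protein-coding genes of GENCODE vM39 on the build GRCm39. Tph1 (ENSMUSG00000040046) spans chr7:46294065-46321965 on the minus strand, and Tac1 (ENSMUSG00000061762) spans chr6:7554120-7565834 on the plus strand. Ddc (ENSMUSG00000020182) lies at chr11:11762602-11848150 on the minus strand, and Slc6a4 (ENSMUSG00000020838) at chr11:76888903-76923169 on the plus strand. Slc18a1 (ENSMUSG00000036330) lies at chr8:69490135-69541887 and Gch1 (ENSMUSG00000037580) at chr14:47391346-47426915, both on the minus strand. Trpa1 (ENSMUSG00000032769) lies at chr1:14942872-14989086 on the minus strand and Lmx1a (ENSMUSG00000026686) at chr1:167516677-167676310 on the plus strand. Only Ddc shares exon sequence with another annotated gene, the long non-coding RNA 1700042O10Rik on the opposite strand, over 421 bases or 4.08% of its exons. Ddc counts may include reads of that gene, since the strand setting of the counting was not given in the sources used here.

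The promoters of Tph1 and Tac1 are shown because the choice of members rested on their values, and that of Slc6a4 because it had the smallest log2 fold change of the members in all 3 comparisons. Each sequence is the 250 bases before the RefSeq transcript start, 5′ to 3′ on the strand of the gene, and each matched GRCm39 once. The windows lie at chr7:46316802-46317051 on the minus strand for Tph1, chr6:7554811-7555060 on the plus strand for Tac1 and chr11:76889173-76889422 on the plus strand for Slc6a4. The RefSeq start used was 3 bases from the Ensembl canonical start for Tph1, 941 for Tac1 and 520 for Slc6a4. All of these windows lie within the gene spans given above, which also cover other transcripts. Capitals mark matches on either strand to TGACG (the cAMP response half-site), TAATTA (a homeodomain core) or CATCTG (an E-box of the kind bound by NeuroD factors).
Tph1: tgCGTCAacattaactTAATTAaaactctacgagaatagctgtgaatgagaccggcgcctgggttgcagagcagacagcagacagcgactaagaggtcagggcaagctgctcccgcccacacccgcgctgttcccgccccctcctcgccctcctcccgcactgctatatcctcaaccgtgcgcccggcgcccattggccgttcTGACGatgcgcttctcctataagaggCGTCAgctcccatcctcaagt
Tac1: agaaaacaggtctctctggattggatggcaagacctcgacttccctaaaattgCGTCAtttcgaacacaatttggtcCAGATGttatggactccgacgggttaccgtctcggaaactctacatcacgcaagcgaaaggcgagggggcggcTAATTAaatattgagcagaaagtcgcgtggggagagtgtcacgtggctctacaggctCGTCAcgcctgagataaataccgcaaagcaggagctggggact
Slc6a4: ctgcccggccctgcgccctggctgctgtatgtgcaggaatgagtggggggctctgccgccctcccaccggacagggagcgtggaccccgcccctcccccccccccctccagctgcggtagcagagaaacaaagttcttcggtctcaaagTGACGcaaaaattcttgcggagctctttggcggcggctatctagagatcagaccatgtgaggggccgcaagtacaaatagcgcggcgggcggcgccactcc

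TGACG occurred 3 times in the Tph1 window, 2 times in that of Tac1 and 1 time in those of Slc6a4 and Gch1. It was found in 17.7% of the 32817 promoter windows of the same length. TAATTA occurred in Tph1 and Tac1 among the 6 members with a window and in 4.85% of all windows. CATCTG was found in Tac1 and in 14.5% of windows, and TATAAA (the TATA box) in Ddc and Gch1 and in 12.4%. TTCNNNGAA (the interferon-gamma activated site) occurred in 7.01% of windows and in none of the 6 member windows. These matches describe letters in a window and do not identify bound sites.

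Serotonin synthesis was examined first. Tph1 encodes the tryptophan hydroxylase of the gut, the rate-limiting enzyme of serotonin synthesis. Control replicates 1, 2 and 3 held 1151, 885 and 1103 normalised counts of Tph1, 18h-αGal replicates held 1276, 1135 and 1280, and 72h-αGal replicates held 387, 454 and 406. The 72h-αGal libraries were thus the 3 lowest, below every control library, while controls and 18h-αGal overlapped. The means were 1046 ± 142 (SD, n = 3) in controls, 1230 ± 82.3 in 18h-αGal and 416 ± 34.5 in 72h-αGal. At 18 h the log2 fold change against control was 0.24 ± 0.14 (SE; 95% confidence interval -0.07 to 0.55) and did not pass the test (adjusted p = 0.377, from edgeR with adjustment by the Benjamini-Hochberg method over all tested genes). At 72 h it was -1.32 ± 0.15, a level 2.49-fold lower than in controls. In bulk samples such as these, fewer cells of a type and less RNA per cell cannot be told apart.

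Ddc encodes the aromatic amino acid decarboxylase that completes serotonin synthesis, an enzyme that other epithelial cells also contain. Its normalised counts in replicates 1, 2 and 3 were 2810, 2157 and 2996 in controls, 2032, 1618 and 3041 in 18h-αGal, and 1734, 2056 and 1469 in 72h-αGal. The 18h-αGal libraries spread over the whole range, and the 72h-αGal libraries all lay below the lowest control. At 18 h the log2 fold change was -0.25 ± 0.21 (interval -0.70 to 0.21, edgeR adjusted p = 0.568), and at 72 h it was -0.58 ± 0.21, or 1.497-fold lower.

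Gch1 encodes GTP cyclohydrolase, the first enzyme of tetrahydrobiopterin synthesis. Replicates 1, 2 and 3 held 275, 471 and 497 normalised counts in controls, 395, 529 and 476 in 18h-αGal, and 325, 389 and 238 in 72h-αGal. The controls alone spanned most of this range and overlapped both other groups. The log2 fold change was 0.19 ± 0.25 at 18 h (interval -0.34 to 0.72, edgeR adjusted p = 0.737) and -0.36 ± 0.25 at 72 h. Without control replicate 1, which was the lowest control, the 18 h value was -0.04.

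Storage and uptake were considered next. Slc18a1 encodes VMAT1, the vesicular monoamine transporter that fills endocrine granules. Its normalised counts were tightly grouped in controls at 448, 457 and 445 and in 72h-αGal at 293, 296 and 282, whereas 18h-αGal replicates held 532, 745 and 769. No group overlapped another: all 18h-αGal libraries lay above, and all 72h-αGal libraries below, every control. At 18 h the log2 fold change was 0.60 ± 0.18 (interval 0.23 to 0.98), a 1.52-fold difference that missed the threshold (edgeR adjusted p = 0.0584). At 72 h it was -0.62 ± 0.18, or 1.53-fold lower.

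Slc6a4 encodes SERT, the serotonin transporter that absorptive enterocytes use to clear serotonin. Replicates 1, 2 and 3 held 1978, 1396 and 2242 normalised counts in controls, 1518, 1506 and 2095 in 18h-αGal, and 1488, 1758 and 1523 in 72h-αGal. All groups overlapped. The log2 fold change was -0.12 ± 0.17 at 18 h (interval -0.49 to 0.24, edgeR adjusted p = 0.746) and -0.22 ± 0.17 at 72 h (interval -0.58 to 0.15). Without control replicate 3, the highest control, the 18 h value was 0.01.

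Tac1 encodes the precursor of substance P and neurokinin A. Replicates 1, 2 and 3 held 459, 485 and 319 normalised counts in controls, 634, 668 and 769 in 18h-αGal, and 152, 130 and 157 in 72h-αGal. As for Slc18a1, the groups did not overlap, with 18h-αGal highest and 72h-αGal lowest. The means were 421 ± 89.6 (SD, n = 3) in controls, 690 ± 70.0 in 18h-αGal and 146 ± 14.4 in 72h-αGal. Tac1 was the only member that passed the test at 18 h, where it rose by a log2 fold change of 0.71 ± 0.20 (interval 0.28 to 1.13), or 1.63-fold (edgeR adjusted p = 0.0495). This value lay at the threshold. Leaving out any single library gave an edgeR adjusted p between 0.0597 and 0.133, and without control replicate 3, the lowest control, the log2 fold change was 0.55 (adjusted p = 0.104). At 72 h the log2 fold change was -1.52 ± 0.21, or 2.86-fold lower, and -1.67 without that library.

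Trpa1 encodes an ion channel through which enterochromaffin cells detect irritants. Its normalised counts in replicates 1, 2 and 3 were 661, 803 and 525 in controls, 743, 987 and 1489 in 18h-αGal, and 215, 273 and 177 in 72h-αGal. The 18h-αGal mice varied most, and their lowest value lay below the highest control. The log2 fold change at 18 h was 0.69 ± 0.24 (interval 0.17 to 1.21, edgeR adjusted p = 0.116). It was 0.39 without 18h-αGal replicate 3, the highest of them. At 72 h every library lay below every control, and the log2 fold change was -1.58 ± 0.25, or 2.98-fold lower.

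Lmx1a encodes a LIM homeodomain transcription factor of the enterochromaffin lineage that acts upstream of Tph1. Replicates 1, 2 and 3 held 145, 125 and 99.9 normalised counts in controls, 117, 182 and 385 in 18h-αGal, and 53.3, 55.5 and 17.7 in 72h-αGal. The 18h-αGal replicates overlapped the controls, and the 72h-αGal replicates did not. The log2 fold change was 0.87 ± 0.45 at 18 h (interval -0.10 to 1.84, edgeR adjusted p = 0.300) and -1.57 ± 0.48 at 72 h, or 2.96-fold lower. The highest 18 h value was that of replicate 3. Over 18 alternative settings of the scaling, filter, tool or libraries, the 18 h fold change ran from 0.28 to 1.18.

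**Figure D1:**
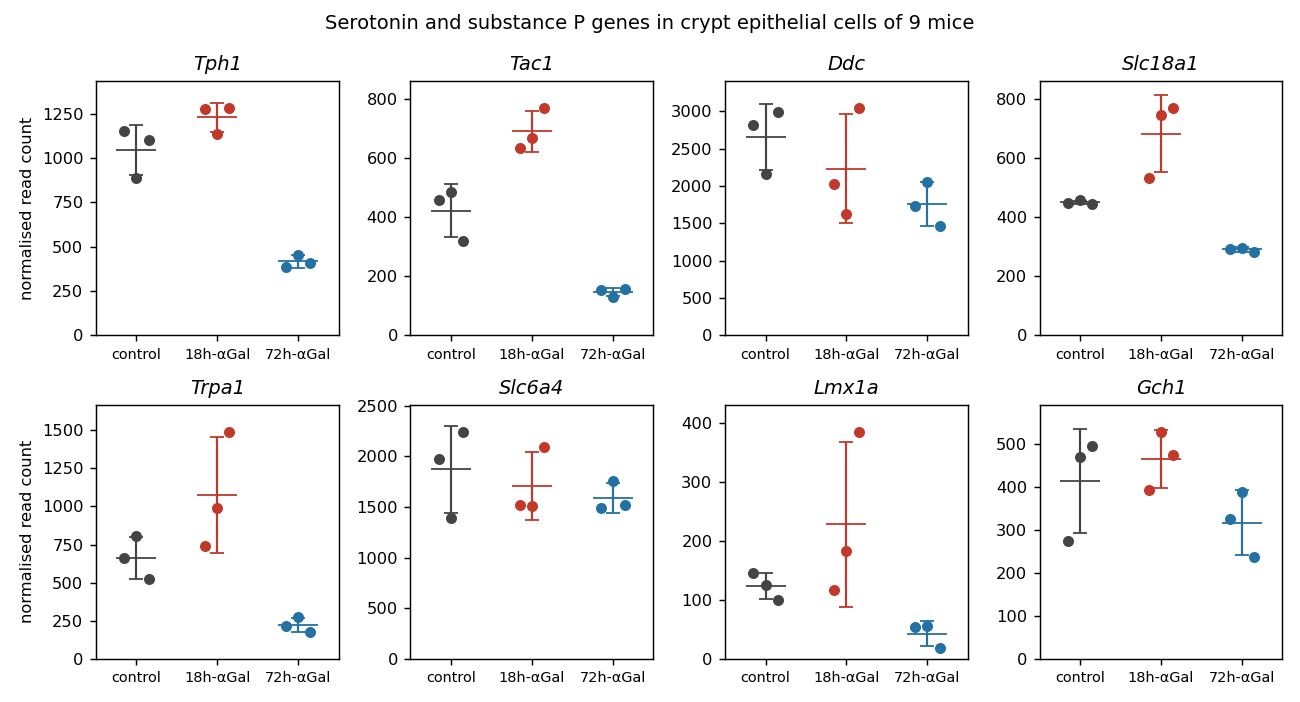
Normalised counts of the 8 genes (vertical axes, one panel per gene) in the control, 18h-αGal and 72h-αGal groups; points are single mice and bars show the mean ± SD (n = 3). For Tac1 and Slc18a1 all 18h-αGal points lie above and all 72h-αGal points below the controls, whereas the Slc6a4 points overlap in all groups.

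At 18 h, 1 of the 8 members was called at an adjusted p under 0.05, where 5.96% of the 18933 tested genes were called and 3.27% were called higher. Replicates of 2 members, Tac1 and Slc18a1, did not overlap the controls and were higher, against 11.5% of all genes. The median log2 fold change of the members was 0.42 and that of all tested genes was -0.03. Comparisons at both times used the same controls, including those that led to the choice of members.

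At 72 h, Tph1 and Tac1 were called lower than control, where 0.0264% of tested genes, 5 in number, were called lower and none higher (1125 genes had an unadjusted p under 0.05). Replicates of 6 members (all but Slc6a4 and Gch1) lay wholly below the controls, against 6.3% of all genes. The members' median was -0.97, with 0.00 for all tested genes. These figures come from the contrast with which the members were chosen, and nothing is read from them. No gene was called by edgeR without control replicate 1, 72h-αGal replicate 1 or 72h-αGal replicate 3, while 1042, 828 and 689 genes had an unadjusted p under 0.05.

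The time points after αGalCer were then set side by side. The log2 fold change of 72h-αGal against 18h-αGal was -2.43 ± 0.48 for Lmx1a, -2.26 ± 0.26 for Trpa1, -2.22 ± 0.21 for Tac1, -1.56 ± 0.15 for Tph1 and -1.22 ± 0.18 for Slc18a1. For these 5 genes and for Gch1, 6 of 8 members, every 72h-αGal library lay below every 18h-αGal library, as for 16.3% of all genes. It was -0.55 ± 0.25 for Gch1, -0.34 ± 0.21 for Ddc and -0.09 ± 0.17 for Slc6a4. The first 5 genes were called lower and 6.04% of all genes were, a comparison that again includes the libraries used in choosing the members.

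**Figure D2:**
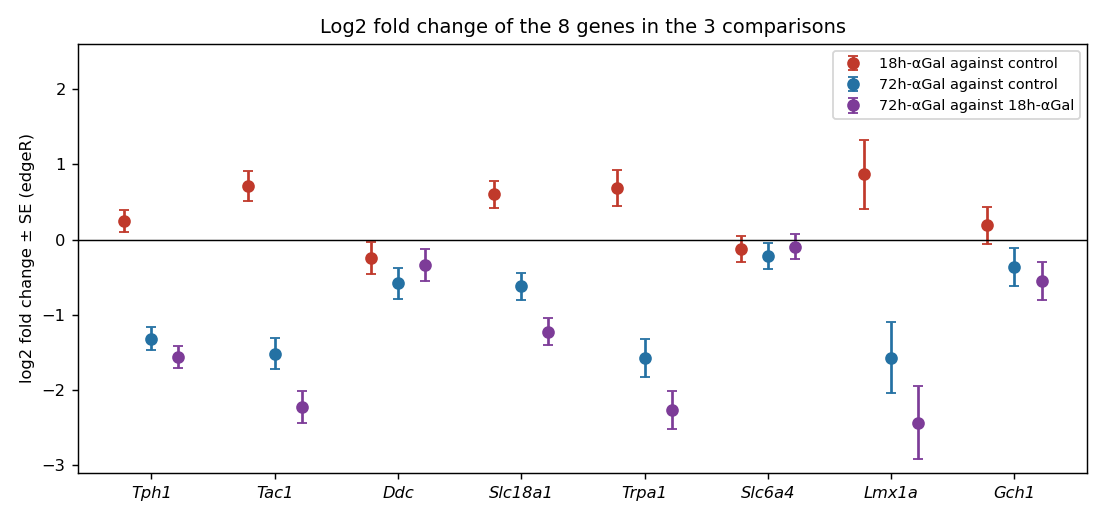
Log2 fold changes from edgeR (vertical axis, points with bars of 1 SE) of the 8 genes in the 3 comparisons, from 3 mice per group. Lmx1a, Trpa1, Tac1, Tph1 and Slc18a1 are above 0 for 18h-αGal and below 0 for 72h-αGal against control, while Ddc and Slc6a4 are below 0 in all 3 comparisons.

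Both Tac1 and Slc18a1 had all 18h-αGal replicates above and all 72h-αGal replicates below the controls, a pattern shown by 144 of the tested genes (0.761%). The libraries of 72h-αGal that fixed the choice of members form part of it.

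Levels were also compared between genes as RPKM, which divides a count by the annotated exon length and by the library total. In controls the order was Slc6a4 (17.9 ± 3.10 RPKM, SD, n = 3), Ddc (13.1 ± 1.49), Tph1 (8.57 ± 0.95), Trpa1 (8.06 ± 2.22), Tac1 (4.74 ± 1.30), Slc18a1 (3.41 ± 0.29), Gch1 (3.16 ± 0.90) and Lmx1a (1.79 ± 0.41). Replicates overlapped between the neighbours Tph1 and Trpa1, Tac1 and Slc18a1, and Slc18a1 and Gch1. The uptake transporter and the decarboxylase therefore headed the order, and the transcription factor closed it.

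At 18 h Trpa1 moved to second place at 12.6 ± 4.02 RPKM, after Slc6a4 at 16.2 ± 2.56 and before Ddc at 10.8 ± 3.16 and Tph1 at 9.96 ± 0.57. The neighbouring pairs did not overlap only between Tph1 and Tac1 (7.56 ± 0.51) and between Tac1 and Slc18a1 (5.08 ± 0.90). At 72 h Slc6a4 (16.03 ± 1.14 RPKM) and Ddc (9.07 ± 1.18) stood above the other 6 members, of which the highest was Tph1 at 3.57 ± 0.25. Tac1, at 1.71 ± 0.23 RPKM, now ranked below Gch1 (2.53 ± 0.51) and Slc18a1 (2.30 ± 0.04), and its replicates lay below those of Slc18a1.

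**Figure D3:**
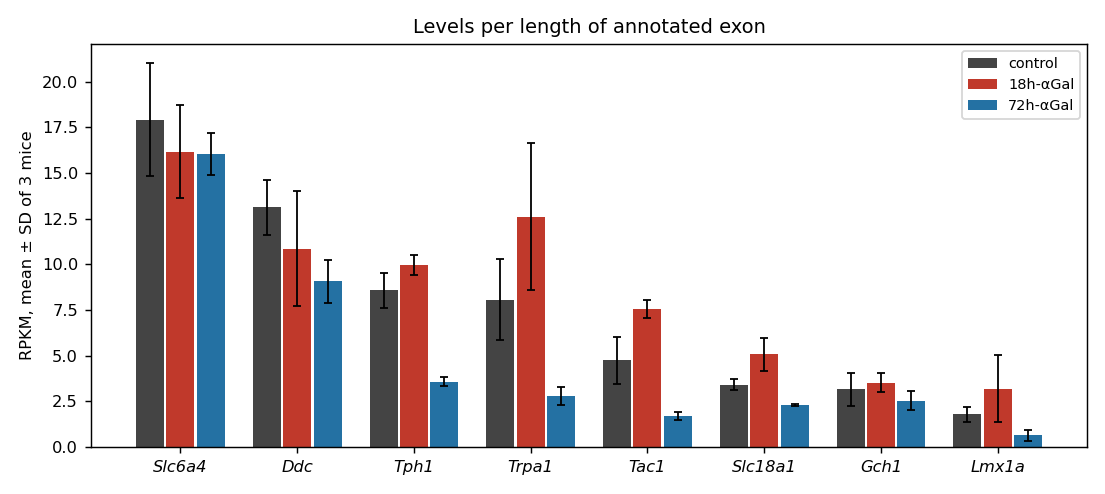
Exon-length-scaled levels of the 8 genes in RPKM (linear vertical axis) in each group. Bars are means and error bars the SD of 3 mice. Slc6a4 has the highest mean in every group, Ddc comes next in controls and 72h-αGal, and the mean of Tac1 is below that of Slc18a1 only in 72h-αGal.

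The members were set against Chga, which encodes the granule protein chromogranin A, common to endocrine cells of the gut. Chga itself was 1022 ± 70.5 normalised counts in controls (SD, n = 3), 1554 ± 302 in 18h-αGal and 463 ± 96.0 in 72h-αGal. It rose at 18 h by a log2 fold change of 0.61 ± 0.17 (edgeR adjusted p = 0.0469) and at 72 h was lower than control, at -1.13 ± 0.17 (adjusted p = 0.0390). Each of these calls held in 7 of 18 alternative settings, with the direction unchanged in all 18. Its 18 h call was lost without control replicate 1 or 2, 18h-αGal replicate 2 or 3, or 72h-αGal replicate 2. Its 72 h call was lost without control replicate 1 or 2, 18h-αGal replicate 2, or any 72h-αGal replicate. A ratio to Chga therefore shows unequal change and not the level of either gene.

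Tph1 amounted to between 89.9% and 118% of Chga in controls (median 100%), 67.5% and 95.9% in 18h-αGal (median 79.1%), and 68.9% and 110% in 72h-αGal (median 99.6%). Its ratio to Chga thus overlapped in all groups, in contrast to its level. Over Chgb, the related granin chromogranin B, it was 34.2% to 41.6% in controls and 21.8% to 33.5% in 18h-αGal, which did not overlap, and 29.2% to 35.8% in 72h-αGal. Tac1 was 28.9% to 49.3% of Chga in controls, 40.5% to 47.7% in 18h-αGal and 27.0% to 42.5% in 72h-αGal. Trpa1 was 47.6% to 81.6%, 55.9% to 78.5% and 38.4% to 60.0% in the same order. Both overlapped between the groups. Over Chgb, Tac1 also overlapped, at 12.0% to 18.8%, 13.1% to 17.2% and 8.91% to 13.9% in the same order. Trpa1 over Chgb was 15.6% to 18.7% in 72h-αGal, below controls (19.8% to 31.1%) and below 18h-αGal (19.5% to 25.4%). Lmx1a over Chga also overlapped, at 9.05% to 14.8%, 8.82% to 20.3% and 4.77% to 12.2%.

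Ddc and Slc6a4 separated instead. Ddc was 219% to 287% of Chga in controls, 113% to 160% in 18h-αGal and 309% to 451% in 72h-αGal. Slc6a4 was 142% to 203%, 105% to 114% and 265% to 411%. For both genes no group overlapped another, with 18h-αGal lowest and 72h-αGal highest, and the same held over Chgb. Slc18a1 overlapped between controls (40.3% to 46.4%) and 18h-αGal (40.02% to 51.9%) and was 52.2% to 76.1% in 72h-αGal. Gch1 was 28.1% to 47.8% in controls, 25.1% to 36.9% in 18h-αGal and 57.9% to 85.4% in 72h-αGal.

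**Figure D4:**
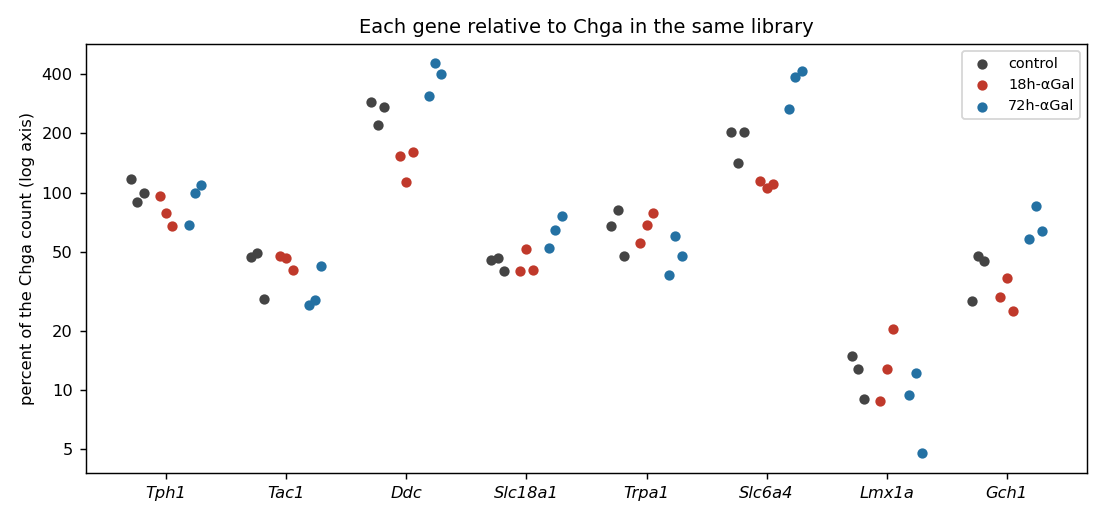
Each member as a percentage of the Chga normalised count in the same library (logarithmic vertical axis), with a point for each mouse of the 3 groups. The groups separate for Ddc and Slc6a4, lowest in 18h-αGal and highest in 72h-αGal, and overlap for Tph1, Tac1, Trpa1 and Lmx1a.

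Likeness over the 9 libraries was described by Pearson's r of log2 CPM (counts scaled to the library total) among 11149 well-expressed genes, with no test, since the libraries share the 3 group levels. The 5 genes most like Tph1 were Limd2 (r = 0.97), Bcap31 (0.97), Pdk3 (0.96), Vim (0.95) and Rab3c (0.95). After subtraction of the group means, r was 0.73, 0.71, -0.31, 0.53 and 0.12, so that only part of the likeness was also seen among mice of 1 group. The 5 genes most like Tac1 were Neurod1 (0.98), Vim (0.97), Rab3c (0.97), Trpa1 (0.96) and Pdk3 (0.96), with r of 0.74, 0.33, 0.54, 0.46 and -0.14 within groups. Tph1 and Tac1 had r = 0.94 over the libraries and -0.42 within groups, whereas Ddc and Slc6a4 had 0.83 and 0.85.

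Other genes of the pathway were drawn from lists. Of 13 other genes that handle serotonin or compete for tryptophan, 11 were tested. At 18 h Maob, a monoamine oxidase that degrades amines, was called lower, from 1520 normalised counts in controls to 615 (log2 fold change -1.30 ± 0.29, edgeR adjusted p = 0.0241), and none was called higher. This call was lost in 5 of 18 alternative settings, among them those without control replicate 1, 18h-αGal replicate 1 or 18h-αGal replicate 2. Maoa, the monoamine oxidase that prefers serotonin, was more abundant, with a log2 fold change of -0.64 ± 0.26 (adjusted p = 0.200). Slc18a2, which encodes the other vesicular monoamine transporter, VMAT2, was at 0.16 ± 0.23 (interval -0.34 to 0.66) and was named after its values were seen. At 72 h 0 of the 11 were called against control by edgeR, and 1, again Maob, had an unadjusted p under 0.05. Maob held 648 normalised counts there, a log2 fold change of -1.21 ± 0.29 (edgeR adjusted p = 0.596). Every 72h-αGal library of Maob lay below the controls. The list's median log2 fold change was -0.19 at 18 h and -0.12 at 72 h. Tph2, the neuronal hydroxylase, was at 0 in all control and 18h-αGal libraries and reached at most 4.42 normalised counts in 72h-αGal.

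Of 8 genes of tetrahydrobiopterin synthesis and recycling, 7 were tested. By edgeR 0 were called at 18 h, with 1 at an unadjusted p under 0.05, and 0 at 72 h, with none at that level. The medians were 0.01 and -0.11. The most abundant, Pcbd1, which recycles the cofactor, was at 0.30 ± 0.15 at 18 h and -0.13 ± 0.15 at 72 h. Of 9 genes of tryptophan supply 8 were tested and 0 were called at either time, with 1 at an unadjusted p under 0.05 at each.

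Serotonin receptors were mostly scarce. Peptidases of the tachykinin list were abundant, with control means of 10904 normalised counts for Ace, 5244 for Dpp4 and 2688 for Ece1. Of 13 serotonin receptor genes 5 were tested and 0 were called against control by edgeR at either time, with 1 at an unadjusted p under 0.05 at each. Htr4, the most abundant, held 198 ± 78.7 normalised counts in controls, 72.2 ± 39.6 in 18h-αGal and 209 ± 34.5 in 72h-αGal, and its log2 fold change at 18 h was -1.43 ± 0.42 (edgeR adjusted p = 0.0568). Of 9 genes of tachykinin signalling and breakdown 5 were tested and 0 were called against control (unadjusted p under 0.05 for 1 at 18 h and none at 72 h). Mme, which encodes neprilysin, a peptidase that cleaves substance P, was at -0.99 ± 0.38 at 18 h and -0.83 ± 0.38 at 72 h (adjusted p = 0.192 and 0.856).

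Sensing and excitability genes did not pass the test against control. Of 12 such genes 9 were tested, 0 were called by edgeR, and 3 had an unadjusted p under 0.05 at 18 h and 2 at 72 h. Adra2a, an adrenergic receptor of enterochromaffin cells, was at -1.31 ± 0.42 at 18 h (adjusted p = 0.120) and 0.03 ± 0.41 at 72 h. Scn3a, a sodium channel that supports their firing, was at 0.36 ± 0.24 and -1.13 ± 0.24 (adjusted p = 0.442 and 0.373). Trpm5, a channel best known from tuft cells, was at 0.81 ± 0.24 and -0.36 ± 0.24 (adjusted p = 0.0717 and 0.885).

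Other enterochromaffin markers, 7 in number, were all tested. At 18 h 2 of them were called higher, Chga and its relative Chgb, the latter at a log2 fold change of 0.72 ± 0.16 (edgeR adjusted p = 0.0138). At 72 h Chga and Chgb were called lower, Chgb at -1.06 ± 0.16 (adjusted p = 0.0349). The Chgb call held in 17 of 18 alternative settings at 18 h (lost without control replicate 2) and in 9 of 18 at 72 h (lost without control replicate 1 or 2 or any 72h-αGal replicate). Reg4, a secreted lectin of these cells, was at 0.42 ± 0.17 and -1.02 ± 0.18 (adjusted p = 0.187 and 0.108), and Afp, alpha-fetoprotein, at 0.73 ± 0.35 and -1.87 ± 0.37 (adjusted p = 0.275 and 0.482). Mnx1 went the other way at 18 h, with every replicate below the controls (-0.92 ± 0.35, edgeR adjusted p = 0.145), and was at -0.55 ± 0.35 at 72 h. Hmgn3 was above control at both times (1.47 ± 0.74 and 0.62 ± 0.73), and Ucn3 was at 0.30 ± 0.63 and -1.46 ± 0.65. The list's median was 0.61 at 18 h and -1.06 at 72 h, and at 72 h 6 of 7 had replicates wholly below the controls. Its summed level was 8348 to 8656 normalised counts in controls, 9723 to 15990 in 18h-αGal and 3776 to 4198 in 72h-αGal.

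Genes used by other endocrine lineages were listed too. Among 11 peptide hormone genes 9 were tested, and Gcg (proglucagon, 1.001 ± 0.22, edgeR adjusted p = 0.0162) and Sst (somatostatin, 1.29 ± 0.27, adjusted p = 0.0187) rose at 18 h. The Gcg call was lost without control replicate 2 or 18h-αGal replicate 2, and that of Sst without any 1 of the controls or without 18h-αGal replicate 2. At 72 h 0 were called and 4 had an unadjusted p under 0.05, all lower. The medians were 0.65 and -0.76. All 15 endocrine transcription factor genes were tested, with 0 called at 18 h by edgeR (4 at an unadjusted p under 0.05) and 1 at 72 h, where Neurod1, which drives endocrine differentiation, fell by 1.19 on the log2 scale (adjusted p = 0.0170), a call lost without control replicate 1 or 2 or any 72h-αGal replicate. The list's medians were 0.48 and -0.46. Of 13 granin and prohormone processing genes, Cpe (carboxypeptidase E, 0.78 ± 0.22, adjusted p = 0.0483) and Pam (the enzyme that amidates peptides such as substance P, 0.78 ± 0.18, adjusted p = 0.0181) rose at 18 h. The Cpe call held in 6 of 18 alternative settings, and among single libraries only those of 18h-αGal replicate 1, control replicate 3 and 72h-αGal replicate 3 could be left out without losing it. The Pam call was lost without control replicate 1, 18h-αGal replicate 2 or 18h-αGal replicate 3. At 72 h 0 of these genes were called by edgeR and 5 had an unadjusted p under 0.05, and the medians were 0.37 and -0.84.

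**Figure D5:**
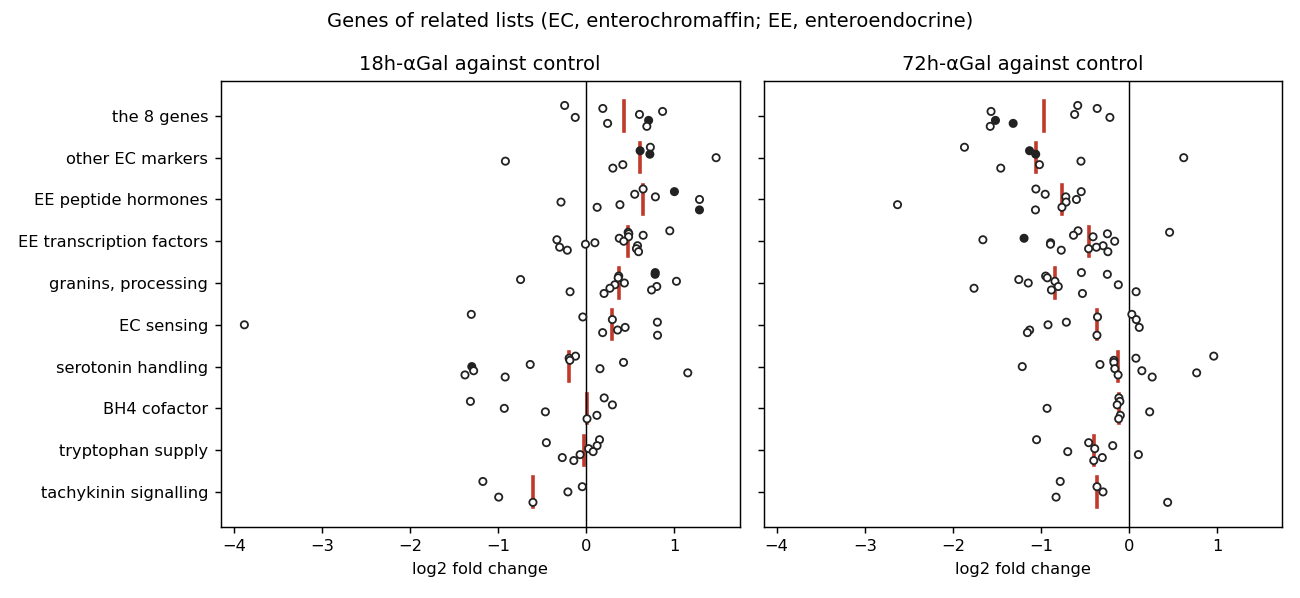
Log2 fold changes from edgeR (horizontal axes) of the tested members and of related lists at 18 h (left) and 72 h (right) against control, with a point for each gene, filled where the adjusted p was under 0.05, a red line at each median, and BH4 standing for tetrahydrobiopterin. The medians of the enterochromaffin marker, peptide hormone, endocrine transcription factor and granin lists lie above 0 at 18 h and below 0 at 72 h.

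Serotonin genes are also used by mast cells and tachykinins by enteric neurons, so markers of other cells were examined. Of 13 mast cell markers 6 were analysed, and their sum was 720 to 1202 normalised counts in controls, 1057 to 1196 in 18h-αGal and 939 to 1569 in 72h-αGal, most of it Kit (630 to 1490), which other cells of the epithelium also use. The defining proteases were near 0: Mcpt1 and Mcpt2 were at 0 in 7 of 9 libraries and Tpsb2 in 5. Of 13 enteric neuron markers 11 were analysed, with a sum of 258 to 315 in controls, 255 to 421 in 18h-αGal and 170 to 234 in 72h-αGal. The neuron sum was therefore lowest at 72 h, like the members, and its part in the members' values was not tested. Of the neuron markers, Stmn2 and Uchl1 were at 0 in 8 and 7 of 9 libraries. By contrast, Ret (49.8 to 189 normalised counts), Nefm (20.6 to 105), Tubb3, Nefl and Elavl4 had counts in all 9 libraries. Elavl3 and Chat were each at 0 in 1 library. For both lists 0 genes were called against control by edgeR at either time, with 1 mast cell marker at an unadjusted p under 0.05 at 18 h and 2 neuron markers at 72 h.

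All 6 glial markers were analysed. Their sum was 10944 to 13480 normalised counts in controls, 6563 to 8197 in 18h-αGal and 10517 to 11653 in 72h-αGal, nearly all of it Erbb3, a receptor that epithelial cells share and that was lower at 18 h (-0.69 ± 0.12, edgeR adjusted p = 0.00304). Foxd3 was at 0 in 8 of 9 libraries. Leukocyte markers (11 of 12 analysed) summed to 128 to 175 in controls, 131 to 161 in 18h-αGal and 97.9 to 220 in 72h-αGal. Endothelial and red cell markers (3 of 6 analysed) summed to 40.5 to 57.1, 12.6 to 20.7 and 19.7 to 22.8 in the same order. Epithelial markers (8 of 8) summed to 100728 to 125854, 111034 to 127210 and 88611 to 112360. By edgeR 0 genes of the last 3 lists were called against control, with 1 epithelial marker at an unadjusted p under 0.05 at 18 h.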

How the data were processed

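Per the labels, ribosomal RNA was depleted and strand-directional libraries were sequenced as 100 bp reads. The study's methods name HISAT2 and GRCm39, whereas the submitters' processing notes list GRCm38, mm10, HISAT2, featureCounts (Subread) and DESeq2 1.42.0. The annotation release and strand setting were not given in the sources used here. The authors deposited raw read counts per gene and a normalised signal, the count divided by 1 factor per library, which is called the normalised count here.

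Symbols and positions came from GENCODE vM39, which matched 28480 of 29288 gene identifiers (98.4% of counts). Raw counts were tested with edgeR 4.0.16 in R 4.3.3: filterByExpr, TMM scaling, 1 robust quasi-likelihood fit of all 9 libraries, and Benjamini-Hochberg adjustment over 18933 genes, called at 0.05. A likeness search used log2 CPM with a prior count of 2 and a mean of at least 100 counts. Promoters came from RefSeq windows of GRCm38.p6, placed on GRCm39 by sequence. The procedure was tested on simulated data. DESeq2 1.42.0 and limma 3.58.1 were alternatives. A floor of 3 counts corresponded to 0.0917 to 0.338 CPM, for counting error only.

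The members and gene lists were chosen with earlier results of these data known. Named from each list were the 4 most abundant genes, or fewer, and genes called against control. Markers at 0, the neuron markers given beside them and Slc18a2 were named after their values were seen. Of 168 list genes, 2 symbols had no match, and other list genes without values were not analysed here. Replicates were separate mice per the labels, which gave no batch.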

Additional observations from a re-analysis of the deposited data

Results flagged for a closer look

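For 6 of the 8 genes the fitted level lay above control in 18h-αGal and below control in 72h-αGal. The 5 of them called between the 2 time points (edgeR adjusted p under 0.05) drew attention. Gch1, the other, was not called there. On the log2 scale the difference, 72h-αGal minus 18h-αGal, was -1.56 for Tph1, -2.22 for Tac1, -1.22 for Slc18a1, -2.26 for Trpa1 and -2.43 for Lmx1a. The 72h-αGal values had entered the choice of these genes, which favours such a difference, so the values are given as a description and not as a tested result. Groups of 3 mice were too small for a check of single outlying samples.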

How the results depend on the processing

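The 18 alternatives changed the scaling, filter, tool or libraries, and for list genes other than members they were added after seeing the data. At 18 h, 1128 genes were called, and DESeq2 called 1720, the fit of only the 2 groups compared 593, and fits without 1 library 432 to 1556 (432 without 18h-αGal replicate 2, 489 without control replicate 1, 681 without control replicate 2). The 1 member called there, Tac1, became 2 members without the low-count filter or with DESeq2, and 0 with library totals alone, with a mean of at least 100 counts, without robust fitting, with the replicate block or with the 2 groups alone (3 members had an unadjusted p under 0.05 in each), and 0 to 1 without 1 library (3 or 4 unadjusted). The edgeR, limma or DESeq2 adjusted p of Tac1 ran from 0.0257 to 0.133, that of Slc18a1 from 0.0367 to 0.212 and that of Trpa1 from 0.0463 to 0.367. The direction turned, with no call in any setting, for Gch1 at 18 h (log2 fold change -0.042 to 0.33 without 1 library, negative without control replicate 1), Slc6a4 at 18 h (-0.29 to 0.014, positive without control replicate 3) and Slc6a4 between the time points (-0.17 to 0.079, positive without 18h-αGal replicate 3).

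At 72 h against control, 5 genes were called, and there were 13 without the low-count filter, 3 with a mean of at least 100 counts, 31 with DESeq2, 3 without robust fitting, 1 with the replicate block and 0 to 20 without 1 library (20 without control replicate 3). The 2 members called became 1 with the replicate block or with the 2 groups alone (Tph1 in both) and 0 to 3 without 1 library, with 0 called without control replicate 1, 72h-αGal replicate 1 or 72h-αGal replicate 3 (5 or 6 members had an unadjusted p under 0.05). Between the time points 5 members were called in all 18 alternatives, where the fit of all 9 libraries called 6.04% of all genes lower. The 72h-αGal values had entered the choice of members, so the counts of members called in this paragraph support nothing. Of all genes 1936 were called between the time points, and 831 to 2593 were without 1 library (940 without 18h-αGal replicate 2 and 1108, 1194 and 831 without 72h-αGal replicates 1, 2 and 3). With library totals alone the median log2 fold change of all genes there was 0.12, and with DESeq2 at 18 h it was -0.11. The cause of these changes was not tested.

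The labels number the mice 1 to 3 in each group without describing pairs, and deviations of same-numbered libraries from their group means had correlations of -0.15 to 0.11. The numbers were therefore not used as pairs. The replicate block gave 781 genes called at 18 h, 1 at 72 h and 1371 between the time points. Depth limited Lmx1a most, with 24 raw counts in its lowest library.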
